A study of Sus scrofa with 92 samples.

Results

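GBP1 and RSAD2 are 2 of the 25322 genes measured by RNA sequencing across tissues of 60-day-old pigs from 10 breeds. The members were chosen by gene symbol, and the pair had drawn attention through their tissue and breed-origin levels, so those levels are described here without a test. GBP1 was read at ENSSSCG00000024973 and RSAD2 at ENSSSCG00000008648. The labels state no treatment, genotype or infection. The 5 Chinese breeds were Tibetan wild boar, Meishan, Jinhua, Bamei and Rongchang, and the 5 Western breeds were Berkshire, Hampshire, Landrace, Large White and Piétrain. There was 1 library per breed and tissue. The 83 tissue libraries comprised 10 each of spleen, psoas major and longissimus dorsi, 9 each of heart, liver, kidney, subcutaneous adipose and ovary, and 8 of lung. A further 9 libraries were mixtures of tissues of 1 breed. No lung of Rongchang was analysed, and Tibetan wild boar was represented by both muscles and spleen. Whether all libraries of a breed derive from 1 pig, from several or from pools is not given in the labels, nor is the composition of the mixtures. A breed is therefore the replicate, and a difference between breeds may be a difference between the animals sampled.

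Interferons are secreted alarm signals that bind surface receptors and act through JAK kinases and STAT transcription factors. GBP1 encodes guanylate-binding protein 1, a large GTPase of the cell-autonomous defence against intracellular pathogens, which in human cells is best known as a target of interferon gamma. RSAD2 encodes viperin, an enzyme that in human cells turns CTP into a chain terminator of viral RNA synthesis and is a classical target of type I interferon, and its neighbour CMPK2 encodes a mitochondrial nucleotide kinase. In the pig annotation of the Sscrofa11.1 reference, RSAD2 and CMPK2 were adjacent with 0 genes between them, and so were GBP1 and GBP2. Of the guanylate-binding proteins other than GBP1, GBP2 was the member matched by symbol, and reads of near-identical paralogs could have been split between these genes.

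Levels are FPKM, fragments normalised for gene length and library size, scaled between libraries. They are per length, so the levels of both genes can be set side by side. Total FPKM per library ran from 519075 to 2196138, and the depth of each library is unknown. In bulk tissue, fewer expressing cells and less RNA per cell cannot be told apart. All 15 tissue markers checked were higher in every library of their own tissue than in any other tissue library. ADIPOQ, a marker of fat cells, was not matched.

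The library labelled Berkshire spleen went against its label. Each of 80 tissue libraries was compared with the mean of the other tissues of each breed, over the 300 genes that varied most between breeds, with the interferon genes left out. Own breed was the closest in 77 libraries. The library labelled Berkshire spleen had a Pearson r of 0.192 with the other Berkshire tissues and of 0.610 with the Bamei tissues. With 1000 genes own breed was the closest in 79 libraries, and the exception was again the library labelled Berkshire spleen, with r of 0.147 for Berkshire and 0.551 for Bamei. At 300 genes the other exceptions were the hearts of Jinhua and Rongchang, by r differences of 0.00708 and 0.0780. Correlations over genes describe these libraries and carry no test. The origin difference of GBP1 in spleen is given with and without this library. Other results that use spleen include this library unless stated.

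**Figure D1:**
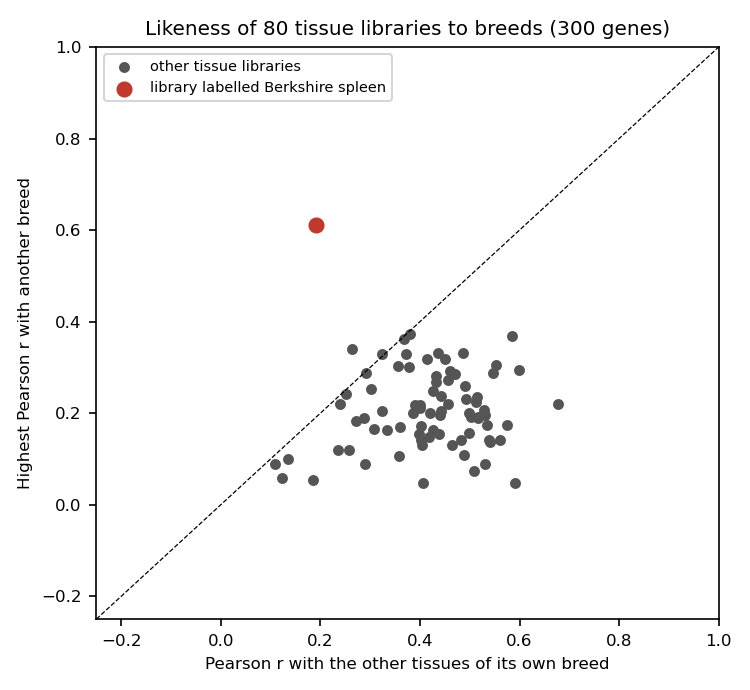
Likeness of 80 tissue libraries to breeds over 300 genes. The x axis is Pearson r with the other tissues of the library's own breed, the y axis the highest r with another breed, and the dashed line marks equality; the library labelled Berkshire spleen, at 0.192 and 0.610, lies far above the line.

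GBP1 was a low transcript with its highest levels in spleen and lung. In spleen it ranged over 10 breeds from 1.41 FPKM in Hampshire to 10.6 FPKM in Meishan, with a median of 5.46 FPKM. In lung it ranged over 8 breeds from 0.758 FPKM in Berkshire to 6.63 FPKM in Meishan, with a median of 1.19 FPKM. The mean was 5.40 ± 3.54 FPKM in spleen (SD, n = 10) and 2.76 ± 2.51 FPKM in lung (SD, n = 8). Spleen was above lung in 8 of 8 breeds, or 7 of 7 without Berkshire, and lung was above heart in 8 of 8 breeds. The other tissues averaged 1.08 FPKM in heart, 0.964 in liver, 0.848 in subcutaneous adipose, 0.700 in longissimus dorsi, 0.699 in psoas major and 0.679 in kidney. Ovary was lowest at 0.284 ± 0.325 FPKM (SD, n = 9). The ranges over breeds overlapped between all neighbours in this order.

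RSAD2 was a far more abundant transcript than GBP1 and had a different tissue order. Its mean was 75.0 FPKM in lung, 59.6 in heart, 49.3 in subcutaneous adipose, 48.5 in liver, 42.8 in spleen, 31.8 in psoas major and 28.1 in longissimus dorsi. Kidney, at 15.2 ± 17.8 FPKM (SD, n = 9), and ovary, at 13.1 ± 21.1 FPKM (SD, n = 9), were lowest. The SD over breeds exceeded the mean in every tissue, and the ranges of all neighbours overlapped. The order of the means rested in part on Hampshire. Without that breed, the mean was 47.7 FPKM in lung, 26.5 FPKM in subcutaneous adipose and 7.96 FPKM in ovary. The medians over all breeds gave another order, with 43.9 FPKM in lung, 38.5 in heart, 36.4 in liver, 25.7 in spleen, 14.1 in psoas major, 11.0 in longissimus dorsi, 10.3 in kidney, 10.1 in subcutaneous adipose and 1.91 in ovary. Within breeds some steps held and others did not. Longissimus dorsi was above kidney in 9 of 9 breeds, heart above subcutaneous adipose in 8 of 9, spleen above psoas major and psoas major above longissimus dorsi in 8 of 10 each, and kidney above ovary in 6 of 9. Lung was above heart in 4 of 8 breeds, liver above spleen in 4 of 9 and subcutaneous adipose above liver in 3 of 9, so these neighbours could not be ordered.

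**Figure D2:**
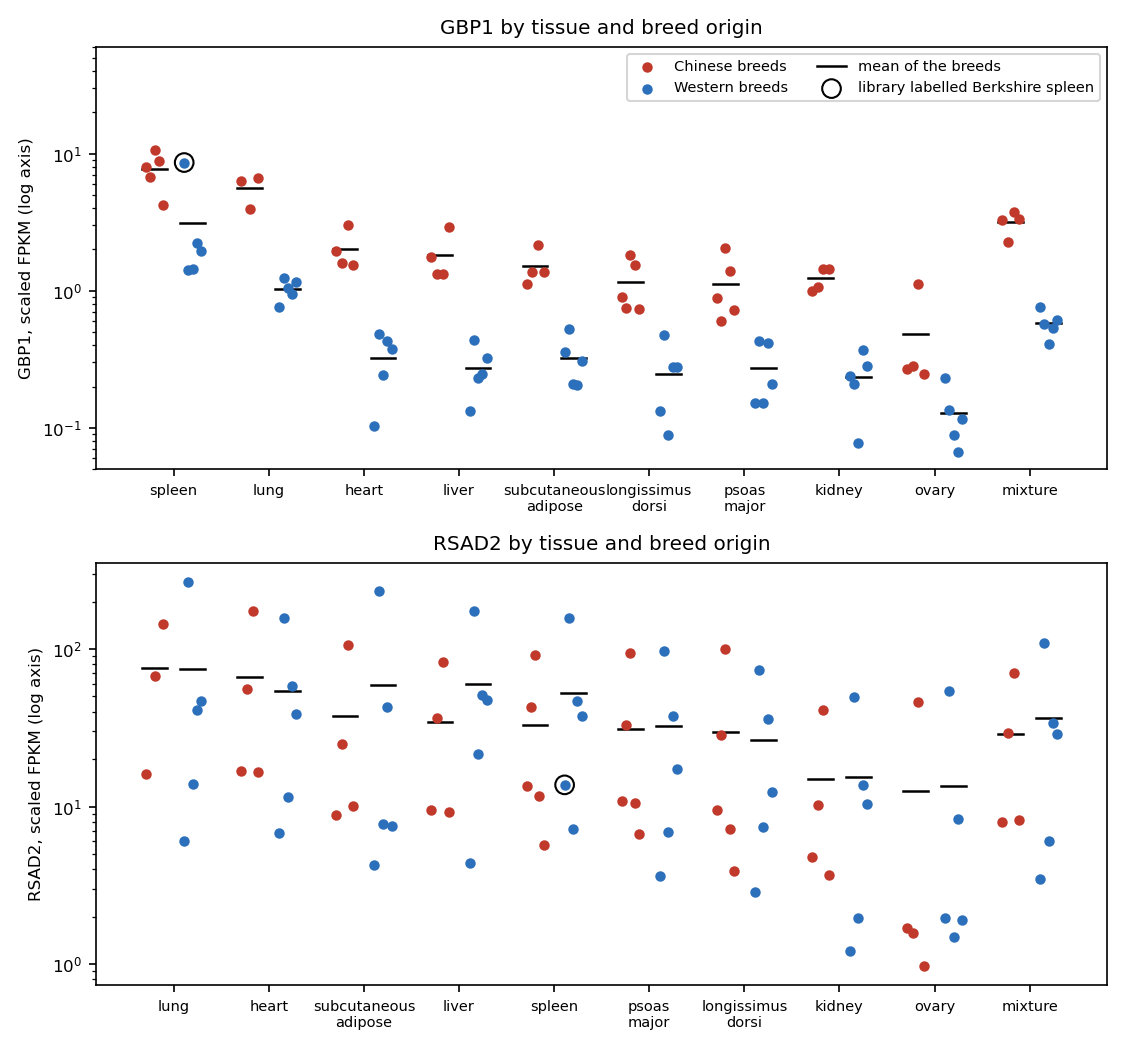
GBP1 (upper panel) and RSAD2 (lower panel) by tissue, with tissues in order of mean level and mixtures last. The y axis is scaled FPKM on a log axis, each point is the library of 1 breed, red is Chinese and blue Western, lines are means over breeds, and the ring marks the library labelled Berkshire spleen; GBP1 separates the origins in all tissues but spleen, and RSAD2 in none.

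GBP1 was higher in every Chinese library than in every Western library of the same tissue in 8 of 9 tissues. In lung it stood at 6.63, 6.32 and 3.96 FPKM in Meishan, Bamei and Jinhua, against 1.23, 1.15, 1.05, 0.948 and 0.758 FPKM in Hampshire, Piétrain, Landrace, Large White and Berkshire. All Chinese lungs were above all Western lungs, with a gap that no library filled. The means were 5.64 ± 1.46 FPKM in Chinese lungs (SD, n = 3) and 1.03 ± 0.185 FPKM in Western lungs (SD, n = 5), a ratio of 5.48.

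Heart showed the same separation at a lower level. GBP1 stood there at 2.99, 1.95, 1.60 and 1.54 FPKM in Meishan, Bamei, Jinhua and Rongchang, against 0.479, 0.426, 0.374, 0.245 and 0.103 FPKM in Hampshire, Large White, Piétrain, Landrace and Berkshire. Liver had the largest ratio of means, 6.69, with 1.83 ± 0.752 FPKM in Chinese (SD, n = 4) and 0.273 ± 0.115 FPKM in Western breeds (SD, n = 5). Kidney averaged 1.23 ± 0.236 FPKM in Chinese (SD, n = 4) and 0.236 ± 0.107 FPKM in Western breeds (SD, n = 5). The ratio of means was 4.68 in subcutaneous adipose, 4.63 in longissimus dorsi, 4.16 in psoas major and 3.77 in ovary. The margin was narrow in ovary, where the lowest Chinese library was at 0.245 FPKM and the highest Western library at 0.233 FPKM. The ovary ratio rested on Meishan, at 1.12 FPKM. Without it the Chinese mean was 0.265 FPKM and the ratio 2.08.

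Spleen was the tissue where the origins overlapped. GBP1 stood there at 10.6, 8.77, 8.05, 6.73 and 4.19 FPKM in Meishan, Rongchang, Bamei, Jinhua and the Tibetan wild boar, against 8.61, 2.25, 1.94, 1.44 and 1.41 FPKM in the libraries labelled Berkshire, Large White, Piétrain, Landrace and Hampshire. The library labelled Berkshire spleen lay inside the Chinese range, and the Western spleens without it lay below every Chinese spleen. The means were 7.67 ± 2.39 FPKM in Chinese (SD, n = 5) and 3.13 ± 3.08 FPKM in Western spleens (SD, n = 5), a ratio of 2.45. Without that library the Western mean was 1.76 ± 0.406 FPKM (SD, n = 4) and the ratio 4.36. In its other tissues Berkshire was the lowest of all breeds for GBP1 in heart, liver, lung and psoas major.

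Averaged over the 8 tissues that 9 breeds share, GBP1 stood at 2.94, 2.40, 1.99 and 1.71 FPKM in Meishan, Rongchang, Bamei and Jinhua, against 1.25, 0.531, 0.512, 0.478 and 0.316 FPKM in Berkshire, Large White, Hampshire, Piétrain and Landrace. The Berkshire mean holds the library labelled Berkshire spleen. The log2 difference, Chinese minus Western, was 0.91 ± 0.10 (SE). With spleen left out, the means over 7 tissues were 1.36 ± 0.383 FPKM in Chinese (SD, n = 4) and 0.258 ± 0.0888 FPKM in Western breeds (SD, n = 5). To enter a fit, a gene had to be at or above 1 FPKM in at least 3 libraries. GBP1 reached that level in the fits of spleen, lung, heart, kidney and subcutaneous adipose. In heart, kidney and subcutaneous adipose it did so through Chinese libraries alone. It did not reach that level in the fits of liver, ovary, psoas major and longissimus dorsi. Origin differences of this kind were rare among all genes. Chinese libraries were all above Western ones for 2.81% of the genes tested in lung, 1.37% in heart, 1.01% in subcutaneous adipose, 0.933% in liver, 1.49% in kidney, 0.443% in psoas major, 0.328% in longissimus dorsi, 1.17% in ovary and 0.289% in spleen. In 8 or more of 9 tissues this held for 4 genes of 16996, or 0.0235%. GBP1 and RNF169, a ubiquitin ligase of the DNA damage response, were those among them with a symbol. Since origin took part in choosing GBP1, these shares are background and no test.

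RSAD2 showed no such split. Its origins overlapped in 9 of 9 tissues, and a Chinese library was the higher in 92 of 190 pairs of a Chinese and a Western library within a tissue, against 187 of 190 for GBP1. In lung RSAD2 stood at 143, 67.2 and 16.1 FPKM in Meishan, Jinhua and Bamei, against 266, 46.9, 40.8, 13.9 and 6.07 FPKM in Hampshire, Piétrain, Large White, Landrace and Berkshire. Both origins spanned low and high libraries. Over 8 tissues it averaged 34.9 ± 39.3 FPKM in Chinese (SD, n = 4) and 39.2 ± 49.3 FPKM in Western breeds (SD, n = 5), and the log2 difference was 0.08 ± 1.01 (SE). These means rested on 1 breed each: the Chinese mean was 15.8 FPKM without Meishan, and the Western mean was 17.9 FPKM without Hampshire.

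RSAD2 differed mainly between breeds. The mean over 8 tissues was 124 FPKM in Hampshire and 92.1 FPKM in Meishan. It was 36.7 FPKM in Large White, 29.2 in Jinhua, 21.6 in Piétrain, 9.43 in Bamei, 8.76 in Rongchang, 8.21 in Landrace and 4.85 in Berkshire. Hampshire ranked first in 7 of 9 tissues and Meishan in 2, and these breeds held both leading places in all 9 tissues. The highest library exceeded the lowest by 25.8-fold in heart and by 55.5-fold in ovary, with the other tissues between these values. In heart RSAD2 reached 175 FPKM in Meishan and 157 in Hampshire, with a median of 38.5 and a lowest value of 6.80 FPKM in Berkshire over 9 breeds. In ovary, Meishan at 45.8 FPKM and Hampshire at 54.0 FPKM stood far above a median of 1.91 FPKM over 9 breeds.

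Breed accounted for 70.5% of the variance of log2 RSAD2 over 8 tissues and 9 breeds, and 77 of 16996 genes had a larger share. The share was 35.2% for GBP1, with 381 genes above it, and the median of all genes was 4.22%. CMPK2, the neighbour of RSAD2, had 55.0%, and GBP2, the neighbour of GBP1, had 42.3%. Since 1 library was sequenced per breed and tissue, breed, animal and collection cannot be told apart in these shares.

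**Figure D3:**
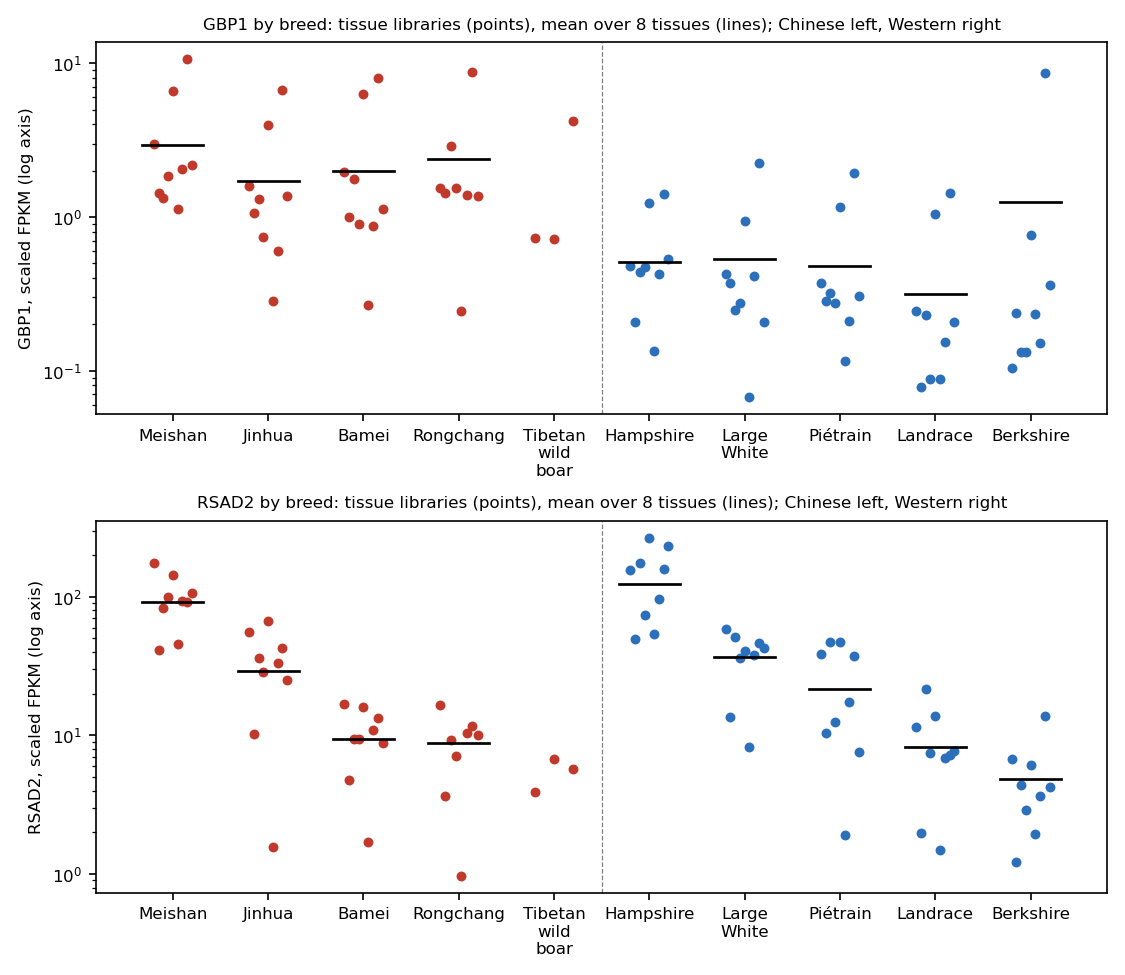
GBP1 (upper panel) and RSAD2 (lower panel) by breed, Chinese left of the dashed line and Western right of it. The y axis is scaled FPKM on a log axis, points are tissue libraries and lines the means over 8 tissues; GBP1 lines lie between 1.71 and 2.94 FPKM in Chinese and between 0.316 and 1.25 FPKM in Western breeds, while RSAD2 peaks in Meishan and Hampshire.

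RSAD2 exceeded GBP1 in all 83 tissue libraries, by ratios from 1.33 in Rongchang spleen to 438 in Hampshire subcutaneous adipose. The median ratio within a breed was 239 in Hampshire and 124 in Large White, and 4.30 in Rongchang. No relation between the levels of the 2 genes across breeds passed the threshold. In spleen, where the origins overlapped for GBP1, Pearson's r of log2 levels was -0.157 (two-sided permutation p = 0.654, adjusted over 10 relations 0.695) and Spearman's rho was -0.079 (permutation p = 0.840, adjusted 0.948) over 10 breeds. Without the 2 breeds farthest from the median of GBP1 the spleen r was -0.092. With 1 breed left out it ran from -0.404 to 0.158, the highest without Hampshire. It was -0.101 without the library labelled Berkshire spleen. The origins overlapped in spleen through that library alone, so the value without it pools separate clusters and is not read. With origin means subtracted, as for the other tissues below, the spleen r was -0.022.

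Elsewhere GBP1 fell into separate clusters by origin, so origin means were subtracted and breeds permuted within origin. Heart then had the highest r, 0.807 (exact permutation p = 0.00868, adjusted over 10 relations 0.0868), with a rho of 0.850 (exact permutation p = 0.00590, adjusted 0.0590), over 9 breeds. Its r was 0.667 without the 2 breeds farthest from the median of GBP1. In the other tissues and the 8-tissue mean r ran from -0.105 in liver to 0.668 in subcutaneous adipose, with adjusted exact permutation p of 0.176 to 0.961, spleen included. In subcutaneous adipose r was -0.322 without the 2 breeds farthest from the median of GBP1, so it rested on those breeds. None of the 10 relations passed the threshold after adjustment.

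The breeds that were high for RSAD2 were high for nearly all type I interferon targets. Of 27 such genes tested, 26 had Meishan and Hampshire as their first-ranked and next breeds over 8 tissues. Meishan was the highest breed for 21 of the 27 and Hampshire for 5. These 2 breeds also held both leading places for 8 of 11 nucleic acid sensors and 10 of 16 interferon gamma targets. For signalling and transcription factors it was 5 of 11. They did so for 1 of 4 T and NK cell markers, 1 of 4 macrophage markers and 0 of 3 B cell markers. The share over all genes is not given here. MX1, a dynamin-like GTPase that blocks virus replication, averaged 240 FPKM in Meishan and 192 FPKM in Hampshire, with 19.6 FPKM in Berkshire. OAS2, which makes the activator of RNase L, averaged 170 FPKM in Hampshire and 93.0 FPKM in Meishan, with 12.1 FPKM in Landrace. CMPK2 averaged 44.6 FPKM in Meishan and 39.3 FPKM in Hampshire, with 6.04 FPKM in Landrace. Among the transcription factors, IRF7, the amplifier of the type I response, averaged 70.5 FPKM in Meishan and 54.0 FPKM in Hampshire, with 6.28 FPKM in Berkshire. IRF1, a factor downstream of interferon gamma, varied by 1.45-fold between its highest and lowest breed. The fold between the highest and the lowest breed had a median of 4.98 over the type I targets and 2.25 over 16 interferon gamma targets. GBP2, highest in Hampshire at 11.4 FPKM and lowest in Jinhua at 4.13 FPKM, did not share the order of GBP1.

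**Figure D4:**
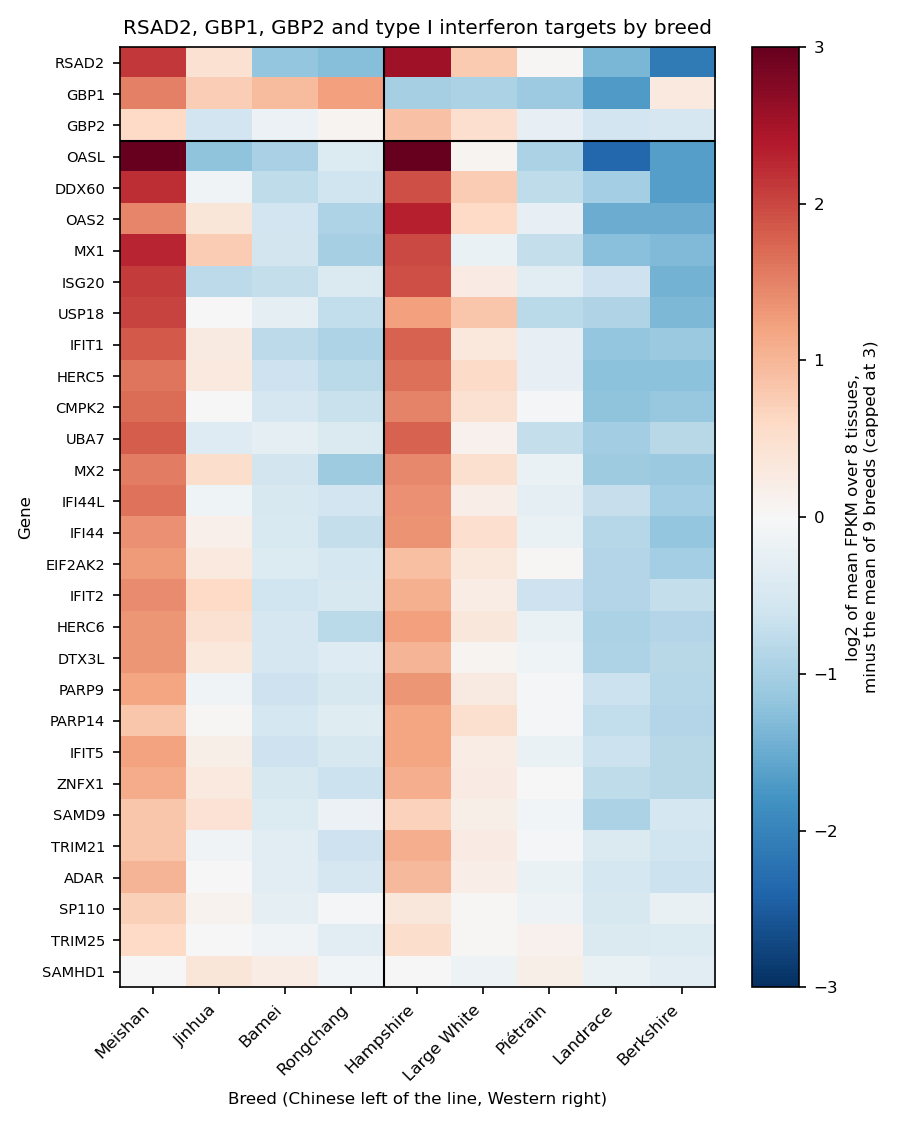
RSAD2, GBP1 and GBP2 (above the horizontal line) and 27 type I interferon targets by breed, Chinese left of the vertical line and Western right of it. Colour is the log2 mean FPKM over 8 tissues minus the mean of 9 breeds, capped at 3; Meishan and Hampshire are the highest columns for RSAD2 and for 26 of the 27 targets, while GBP1 is higher in Chinese breeds.

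Of 9074 compared genes with a symbol, those with a pattern most like RSAD2 came from the same pathway. After subtraction of tissue means, their highest Pearson r over 83 libraries were 0.97 for DHX58, an RNA sensor of the RIG-I family, and 0.97 for OAS2. HERC5, a ligase that attaches ISG15, IFI44 and PML each had an r of 0.96. CMPK2 had an r of 0.96 and GBP2 of 0.72. The median r was 0.93 over the 27 type I targets, against -0.02 over 14247 genes. It was 0.85 for these targets over 65 libraries without Hampshire and Meishan, an alternative chosen after the breed levels were seen. Over the means of 9 tissues, the closest genes with a symbol were HYCC1, NAA80, C3AR1, IFIT1 and CD93, with r from 0.86 to 0.93. Libraries of 1 breed may come from the same animals or pools, so these correlations are descriptions.

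GBP1 had no such companions among the genes with a symbol. Its highest r over 83 libraries among these was 0.80 with RNF169. Next came FCMR, an IgM receptor, at 0.74, ANKRD22 at 0.72, TBXAS1, the thromboxane synthase, at 0.69 and MPDU1 at 0.69. Over all 14247 genes the highest r with GBP1 was 0.85, for a gene not among those named. The r was 0.16 with RSAD2 and 0.18 with GBP2. The median r was 0.26 over the 27 type I targets and 0.21 over 13 interferon gamma targets, against -0.01 over all genes. Every one of the 27 type I targets was more like RSAD2 than like GBP1. IFNGR1, a receptor chain for interferon gamma, was more like GBP1, with an r of 0.52 against -0.06 for RSAD2. Tissue means but not origin means were subtracted for these r. Those with GBP1 therefore pool its separate clusters by origin and may in part reflect origin. RNF169 in heart ranged from 1.69 to 1.93 FPKM in Chinese and from 0.879 to 1.13 FPKM in Western breeds, and in spleen the library labelled Berkshire, at 2.98 FPKM, again lay within the Chinese range of 2.35 to 3.01 FPKM. Over the means of 9 tissues the genes with a symbol closest to GBP1 were KLRG1, CD80, RASGRP2, STK17B and TECPR1, at r from 0.99 to 1.00. KLRG1 and CD80 are lymphocyte and antigen-presenting cell surface proteins.

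**Figure D5:**
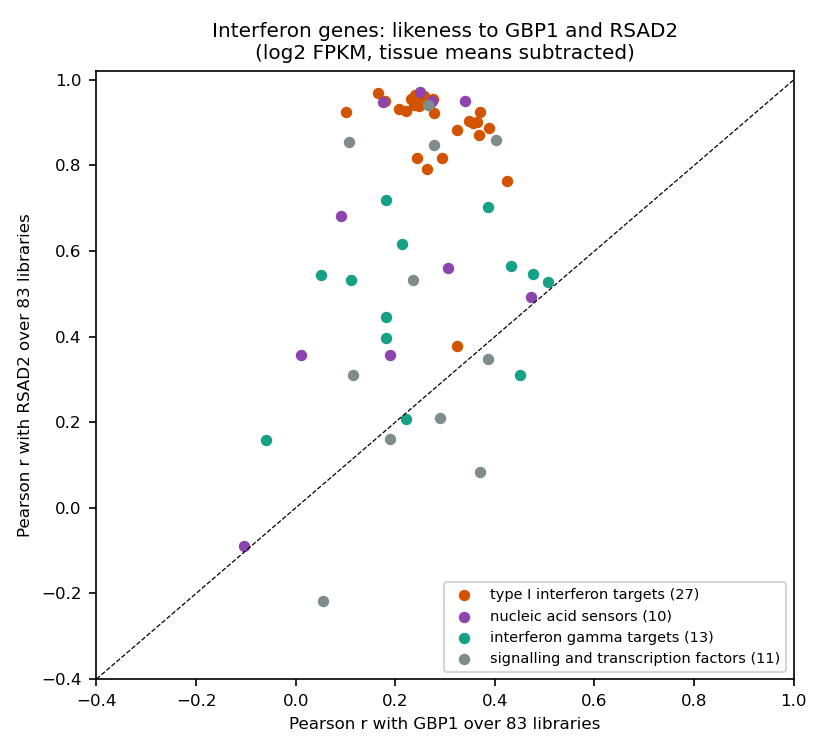
Likeness of interferon genes to GBP1 (x axis) and to RSAD2 (y axis), as Pearson r of log2 levels over 83 libraries after subtraction of tissue means. Origin means were not subtracted. Each point is a gene, colours are gene lists and the dashed line marks equality; all 27 type I targets lie above the line, with a median r of 0.93 for RSAD2 and 0.26 for GBP1.

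Leukocyte markers moved partly with these levels. PTPRC, the pan-leukocyte marker, ranged over the spleens from 159 to 197 FPKM in Chinese and from 146 to 197 FPKM in Western breeds. Its r with GBP1 over 83 libraries was 0.45, and 3 B cell markers had a median r of 0.52. The median r with GBP1 was 0.43 for 4 T and NK cell markers and 0.17 for 4 macrophage markers. Here too the r with GBP1 pool its clusters by origin. Summed over 8 tissues' means, 4 T and NK cell markers ranged from 26.0 FPKM in Jinhua to 72.4 FPKM in Rongchang among Chinese breeds and from 32.9 FPKM in Landrace to 59.1 FPKM in Large White among Western breeds. With RSAD2 the r was 0.23 for PTPRC and a median of 0.33 for the T and NK cell markers. The median r with RSAD2 was -0.08 for the B cell markers and 0.12 for the macrophage markers. The dendritic cell marker XCR1 had an r of 0.25 with GBP1 and 0.16 with RSAD2. The part of cell numbers in the levels of either gene was not tested.

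Of the listed interferon genes, which do not include GBP1 and RSAD2, none was called for origin by limma. A call was made at a Benjamini-Hochberg adjusted p below 0.05. Of 111 listed genes 71 were matched. Over 8 tissues 0 of 67 tested were called, where 0.165% of all genes were called higher and 0.147% lower, and 1 of the 67 had an unadjusted p below 0.05. IFNGR1 had the smallest p, at 23.3 FPKM in Chinese and 20.4 FPKM in Western breeds (adjusted p = 0.474, log2 difference 0.19 ± 0.07, SE). TLR7, a sensor of viral RNA, came next (adjusted p = 0.713, log2 difference 0.26 ± 0.14, SE). GBP2 differed by 0.00 ± 0.30 (SE, adjusted p = 0.999) and CMPK2 by 0.30 ± 0.66 (SE, adjusted p = 0.965). The median log2 difference was 0.23 over the type I targets, with 26 of 27 above 0, and 0.00 over all genes. These 27 genes moved together over libraries, with a median r of 0.93 with RSAD2, and 21 were highest in Meishan. The count of signs is therefore not 27 separate observations. Leaving out Meishan turned CMPK2 to -0.21.

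Within single tissues limma called none of the interferon genes for origin, with 0 to 3 at an unadjusted p below 0.05 in each tissue. The share of all genes called was 0.0% in spleen, 0.0261% in psoas major, 0.0432% in longissimus dorsi, 0.0735% in ovary, 0.0929% in subcutaneous adipose, 0.136% in liver, 0.164% in lung, 0.221% in kidney and 0.23% in heart. The smallest p belonged to WARS1 and PSME1 in heart, IFNGR1 and IRF2 in liver, PSMB8 and IRF9 in spleen, IFNGR1 and ICAM1 in lung, and STING1 and TLR7 in kidney. They belonged to PSME1 and ICAM1 in psoas major, IFNGR1 and MAVS in longissimus dorsi, IFNGR1 and TYK2 in subcutaneous adipose, and IFNGR1 and IRF5 in ovary. The lowest adjusted p was that of WARS1, a tryptophan tRNA ligase, with 16.1 FPKM in Chinese and 11.9 FPKM in Western hearts (log2 difference 0.41 ± 0.09, SE, adjusted p = 0.176). The log2 differences of GBP2 ran from -0.40 to 0.15 over the tissues, with adjusted p of 0.869 or more, and those of CMPK2 from -0.33 to 0.61, with adjusted p of 0.889 or more.

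The size of the origin difference of the other interferon genes was compared between tissues by the moderated F test of limma. GBP1 and RSAD2 are given no such test, since origin took part in choosing them. Of 67 interferon genes, IFNGR1 alone was called (adjusted p = 0.0364), where 2.42% of all genes were. IFNGR1 was 0.46 lower on the log2 scale in Chinese ovaries and 0.43 higher in Chinese livers than in Western ones, and 7 of the 9 sets without 1 breed did not call it. GBP2 and CMPK2 had adjusted p of 0.983 and 0.974.

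In the muscles RSAD2 was higher in psoas major than in longissimus dorsi in 8 of 10 breeds, with a median ratio of 1.21. The earlier naming of RSAD2 in this contrast makes this a description. GBP1 was higher in psoas major in 4 of 10 breeds. Of 56 interferon genes tested with breed as block, limma called 10 higher in psoas major, where 12.7% of all genes were, and 4 lower, where 15.1% were. The 27 type I targets held 7 that were higher and 0 that were lower, with a median log2 difference of 0.11 against -0.01 over all genes. DTX3L, a ubiquitin ligase that works with PARP9, averaged 2.23 FPKM in psoas major and 1.64 FPKM in longissimus dorsi (log2 difference 0.33 ± 0.06, SE, adjusted p = 0.00139). PARP9 (0.23 ± 0.06), SAMD9 (0.21 ± 0.06), the kinase TYK2 (0.19 ± 0.05) and the factor IRF3 (0.26 ± 0.06) were also higher, with adjusted p of 0.00527 to 0.0179. The proteasome activator subunits PSME1 (-0.40 ± 0.08) and PSME2 (-0.34 ± 0.09) and the lysosomal thiol reductase IFI30 (-0.53 ± 0.11) were lower, with adjusted p of 0.00439 to 0.0131. GBP2 (0.02 ± 0.08, adjusted p = 0.862) and CMPK2 (0.11 ± 0.06, adjusted p = 0.185) did not pass. Without breed as a block 0 interferon genes were called in either direction. Markers of other cell types and tissues also moved between the muscles. All 3 macrophage markers tested were lower in psoas major, with a median log2 difference of -0.26, and so were the fat cell marker PLIN1 (-0.93), both liver markers (median -1.28) and the heart marker TNNT2 (-1.10). The skeletal muscle markers MYL1 and TNNC2 were lower too (-0.59 and -0.56). The dendritic cell marker XCR1 (0.28) and the endothelial marker KDR (0.26) were higher. PTPRC, the 4 T and NK cell markers, PECAM1 and both red blood cell markers were not called. The part of these markers was not tested.

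A gene was called for a tissue when it was higher than in each other tissue class by more than 1 on the log2 scale. Every adjusted p of limma also had to be below 0.05. Of 67 interferon genes tested for each tissue, spleen had 5 called, where 2.91% of all genes were called. They were the endosomal sensors TLR7, TLR8 and TLR9, the exonuclease ISG20 and PARP14. TLR8 averaged 31.3 FPKM in spleen and 7.77 FPKM in lung, the nearest class. Lung had 1, IDO1, which degrades tryptophan, at 27.7 FPKM in lung against 4.86 FPKM in spleen, where 1.45% of all genes were called. Heart had 1, MAVS, the mitochondrial adaptor of RNA sensors, at 101 FPKM in heart against 32.4 FPKM in skeletal muscle, where 1.37% of all genes were called. Kidney, liver, ovary, skeletal muscle and subcutaneous adipose had 0 interferon genes called, where 2.69%, 4.97%, 5.43%, 2.45% and 1.69% of all genes were, in that order of tissues. The 7 calls held without the library labelled Berkshire spleen.

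The mixtures carried the same breed patterns. GBP1 stood at 3.78, 3.35, 3.27 and 2.27 FPKM in Meishan, Rongchang, Bamei and Jinhua mixtures, against 0.763, 0.612, 0.576, 0.537 and 0.406 FPKM in Berkshire, Piétrain, Hampshire, Large White and Landrace mixtures. All Chinese mixtures were above all Western ones, as for 0.693% of the genes tested. RSAD2 ranged over the 9 mixtures from 3.45 FPKM in Berkshire to 110 FPKM in Hampshire, with a median of 29.0 FPKM, and its origins overlapped.

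Against the mean of the 9 tissues of the same breed, limma called no difference of the mixtures in GBP1, at 1.75 FPKM in mixtures and 1.42 FPKM over tissues (log2 difference 0.12 ± 0.06, SE, n = 8 breeds, adjusted p = 0.119). RSAD2 was not called either, at 41.5 FPKM in mixtures and 45.7 FPKM over tissues (log2 difference -0.11 ± 0.08, SE, n = 8 breeds, adjusted p = 0.237). These directions rest on the scaling: GBP1 was -0.056 with FPKM as deposited and -0.21 with quantile normalization, and RSAD2 was 0.081 with quantile normalization and was called lower, at -0.27 (limma adjusted p = 0.0067), with median ratios alone. They also depend on single breeds: GBP1 was called higher without Berkshire (limma adjusted p = 0.025) and RSAD2 lower without Piétrain (limma adjusted p = 0.0184). Of 67 interferon genes 34 were higher in mixtures, where 29.0% of all genes were, and 1, MAVS, was lower, where 31.4% were. MAVS averaged 18.4 FPKM in mixtures and 28.4 FPKM over tissues (adjusted p = 3.86e-05). SAMD9, LAP3, TLR3, ICAM1, STAT2, IRF2 and IFIT2 were the higher genes with the smallest p, by log2 differences of 0.25 to 0.47. GBP2 and CMPK2 each differed by 0.11 (adjusted p = 0.133 and 0.178). These counts rest on how mixtures are scaled: with FPKM as deposited 3 interferon genes were higher and 16 lower, and 26.0% of the calls over all genes were higher, against 48.0%.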

How the data were processed

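The authors deposited FPKM per gene; the submitters' processing notes name TopHat, Cufflinks 2.2.1 and the build Sscrofa10.2. Annotation release, Cufflinks options and strand setting are not given in the sources used here, so reads of paralogs, overlapping or antisense genes may be shared. Per the labels' protocols, libraries were made from 1 µg of total RNA with the TruSeq RNA kit. Read counts were not analysed here; the depth is unknown, no counting interval is given, and errors are the spread over breeds, which may hold technical variation.

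The members and lists were chosen with earlier results of these data known. Symbols came from gene names and Sscrofa11.1 synonyms, and 11804 of 25322 gene IDs had one. FPKM were scaled by median ratios within each fit (levels in the text: over all libraries), genes reaching 1 FPKM in 3 libraries of the fit were kept, and log2(scaled FPKM + 1) was fitted with limma 3.58.1 (trend and robust options, R 4.3.3, statmod 1.5.0, and version 1.17.8 of the data.table package). Fold changes on this scale understate the change of low genes. P-values are two-sided, adjusted by Benjamini and Hochberg over all genes of a fit. Breeds were grouped as Chinese or Western from general knowledge, and were the replicates; libraries of 1 breed were paired by breed, and 77 of 80 were closest to their own breed. Each mixture was also scaled to the mean of its tissues by the median ratio, since simulated data showed that median ratios alone shift all genes; the fit first planned is an alternative. Each fit was tested on simulated data. The planned F test of the origin difference across tissues is not reported for the members, since origin took part in choosing them. Permutations were exact, except over 10 breeds without origin strata, where 100000 were drawn. Named list genes were those past the threshold, at most 8 by smallest p, or else the 2 with the smallest p. GBP2 and CMPK2 were named in each comparison. For each likeness the 5 most alike genes with a symbol were named. Other steps used scipy 1.17.1, pandas 2.3.3, numpy 2.4.6, Python 3.11.15 and matplotlib 3.10.9. Alternatives were FPKM as deposited, quantile normalization, another pseudocount, other filters, moderation without trend and robust options, no block and each breed left out; leaving out spleen or the library labelled Berkshire spleen, likeness or levels without Hampshire or Meishan, and median ratios alone for mixtures were chosen after seeing the data.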

Additional observations from a re-analysis of the deposited data

Results flagged for a closer look

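GBP1 in ovary of Meishan was 1.12 FPKM, far from the other 8 ovaries, which lay between 0.0671 and 0.283 FPKM. On the scale of log2(scaled FPKM + 1), its gap to the nearest ovary was 0.733 of the whole range. This was 1 of 20 groups examined, and chance flags about 1 in 20. Meishan was also the highest breed for GBP1 in 7 of 9 tissues. In the Meishan ovary PTPRC ranked 3rd of 9 ovaries, at 3.46 FPKM, and the summed T and NK cell markers ranked 2nd, at 23.8 FPKM; their part was not tested.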

How the results depend on the processing

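No read depth limits can be given, and values near 0.1 FPKM are the least certain. The GBP1 difference over 8 tissues kept its direction in all alternatives and was 1.91 on the log2 scale with a pseudocount of 0.1. The cause of the changes below was not tested. Without breed as a block 0 interferon genes were higher and 0 lower between muscles, and 645 genes in all were called, against 3360. Higher genes there numbered 6 with FPKM as deposited, 5 with a filter at 5 FPKM and 5 to 11 without 1 breed (5 without Large White); the share of calls that were higher was 45.7%, or 38.4% as deposited and 53.3% with quantile normalization. GBP2 between muscles ran from -0.017 (-0.016 without Hampshire) to 0.072 without 1 breed. For origin over 8 tissues, GBP2 was -0.0093 with quantile normalization and ran from -0.18 to 0.19 without 1 breed, and CMPK2 from -0.21 to 0.70. Across tissues, 0 interferon genes were called with quantile normalization or a pseudocount of 0.1, and 0 to 1 without 1 breed. All genes called there numbered 411, or 202 with a pseudocount of 0.1.

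In mixtures, with FPKM as deposited 3 interferon genes were higher and 16 lower, GBP1 was -0.056, CMPK2 -0.069 and GBP2 -0.088; 26.0% of calls over all genes were higher, against 48.0%. With median ratios alone 8 were higher and 14 lower, RSAD2 was -0.27 (adjusted p = 0.0067), CMPK2 -0.058 and GBP2 -0.044. With quantile normalization 8 were lower, GBP1 was -0.21 and RSAD2 0.081; with a pseudocount of 0.1, 2 were lower. Without 1 breed 1 to 3 were lower, GBP1 ran from 0.082 to 0.17 (adjusted p = 0.0250 without Berkshire) and RSAD2 from -0.18 to -0.074 (adjusted p = 0.0184 without Piétrain). Spleen had 9 called interferon genes with a pseudocount of 0.1. For GBP1 against RSAD2, r in liver was 0.075 with quantile normalization, 0.25 with a pseudocount of 0.1 and -0.41 to 0.36 without 1 breed. Without 1 breed it ran from -0.40 to 0.16 in spleen, -0.10 to 0.86 in ovary and -0.046 to 0.62 for the mean over 8 tissues.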
